A study of Mus musculus with 3 samples.

Results

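Apoe, Axl, Cst7, Clec7a, Itgax, Cd9, Cd63, Csf1, Igf1 and Abca1 are genes whose transcripts are known to rise in microglia, the resident macrophages of the central nervous system, when they leave the resting state. They were followed by symbol in single-cell RNA sequencing of mouse spinal cord microglia. Of these 10 genes, 9 had a row among the 27998 genes of the gene list. Clec7a, the beta-glucan receptor Dectin-1, was not analysed here. The cells were YFP (+) cells sorted from lumbar spinal cord, and the donors were Cx3cr1-creER-yfp/+ heterozygotes, young adults of both sexes on a C57BL/6 background. The 3 samples were naive, 24 h after sciatic nerve transection and 48 h after sciatic nerve transection, each 1 library of cells from pooled animals. All 3 groups carry the Cx3cr1-driven creER-yfp allele in place of 1 copy of Cx3cr1, so no group is free of it, and the methods describe a course of tamoxifen before all experiments without singling out these mice.

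The barcodes carry the suffixes 1, 2 and 3, and no label or header ties a suffix to a time point. The libraries are therefore called 1, 2 and 3, and no difference between them is assigned to injury. With 1 library a time point there was no replicate and no test between libraries or between groups of cells. A UMI, or unique molecular identifier, marks 1 captured transcript, and CPM, the level used throughout, is UMIs of a gene per 1000000 UMIs of a group of cells. Each ratio is given with an exact 95% interval of counting error, and a gene was called higher or lower past 1.5-fold where its mean level over the groups compared was at least 20 CPM.

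Apolipoprotein E is a lipid carrier that microglia and astrocytes secrete, and Abca1 is the membrane transporter that hands cholesterol to it. Both are known targets of the liver X receptors, which sense oxidised cholesterol. Axl is a receptor kinase that, with Mertk, recognises dying cells through bridging ligands such as Gas6. Cst7 (cystatin F) inhibits lysosomal cysteine cathepsins, Itgax is the CD11c integrin chain, and Cd9 and Cd63 are tetraspanins of the plasma membrane and of late endosomes. Csf1 and Igf1 are secreted growth factors, and Csf1 acts on the receptor Csf1r that microglia need to survive. Together these genes are used as marks of the activated microglia seen around plaques, in demyelination and in development.

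Positions were taken from GENCODE M21, on the GRCm38 assembly that is also named mm10. Apoe lies on chromosome 7 (19696109 to 19699188, minus strand), as do Axl (25757273 to 25788705, minus strand) and Itgax (128129547 to 128150657, plus strand). Abca1 lies on chromosome 4 (53030787 to 53159895, minus strand), Cd9 on chromosome 6 (125460266 to 125494791, minus strand) and Csf1 on chromosome 3 (107741048 to 107760469, minus strand). Cst7 lies on chromosome 2 (150570415 to 150578944, plus strand). Cd63 (128900989 to 128912822) and Igf1 (87858265 to 87937042) lie on the plus strand of chromosome 10.

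Promoters are shown for the 4 genes that passed the fold in a comparison of libraries: Apoe, Cd9 and Abca1, which were lower in libraries 2 and 3 than in library 1, and Cst7, which was highest in library 2. Each sequence is the 250 bases before a RefSeq start site on GRCm38.p6, 5′ to 3′ on the gene's strand, and capitals mark a match to a searched motif. For Apoe, which has 3 RefSeq windows, the outermost is printed. The windows are chr7:19699189-19699438 on the minus strand for Apoe, chr6:125494761-125495010 on the minus strand for Cd9, chr4:53159896-53160145 on the minus strand for Abca1 and chr2:150570165-150570414 on the plus strand for Cst7.
Apoe: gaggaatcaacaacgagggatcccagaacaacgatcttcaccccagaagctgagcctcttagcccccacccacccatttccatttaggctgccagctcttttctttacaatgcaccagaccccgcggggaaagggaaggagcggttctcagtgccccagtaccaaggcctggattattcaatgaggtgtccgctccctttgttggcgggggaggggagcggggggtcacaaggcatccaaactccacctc
Cd9: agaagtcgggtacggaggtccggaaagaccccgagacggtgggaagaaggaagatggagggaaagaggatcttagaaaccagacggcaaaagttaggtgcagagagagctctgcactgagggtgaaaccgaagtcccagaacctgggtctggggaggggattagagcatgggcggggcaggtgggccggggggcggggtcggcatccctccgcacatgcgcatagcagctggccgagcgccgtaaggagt
Abca1: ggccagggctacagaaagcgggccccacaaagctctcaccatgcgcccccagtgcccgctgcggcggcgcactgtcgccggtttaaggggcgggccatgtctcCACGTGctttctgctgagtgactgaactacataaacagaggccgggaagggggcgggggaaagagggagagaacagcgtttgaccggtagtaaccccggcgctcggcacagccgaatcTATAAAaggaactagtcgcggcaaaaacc
Cst7: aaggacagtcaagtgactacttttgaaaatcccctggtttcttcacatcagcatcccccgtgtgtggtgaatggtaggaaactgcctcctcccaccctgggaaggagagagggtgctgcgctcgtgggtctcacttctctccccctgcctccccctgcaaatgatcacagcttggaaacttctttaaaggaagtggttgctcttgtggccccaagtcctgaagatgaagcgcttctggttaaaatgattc

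Both strands were searched for 6 motifs. The letters searched were TGANTCA for AP-1, the factor of Fos and Jun, and TGACGTCA for the cyclic AMP response element, CRE. They were CACGTG for the E-box and GAGGAAGT for PU.1, the lineage factor of macrophages. They were TTGCGCAA for C/EBP and, as the core promoter element, TATAAA for TATA. No searched word contains another. All 9 genes had a promoter in the RefSeq table, and 4 of them held a match in any window. Abca1 held an E-box that begins 147 bases before the start and a TATA match at 29 bases. The second Apoe window, which starts inside the gene, held 2 overlapping TATA matches. Itgax held an AP-1 match at 56 bases and Igf1 an AP-1 match at 37 bases. Among all 32851 promoters of the table, 6.75% held AP-1, 6.02% the E-box, 12.4% TATA, 2.44% PU.1, 1.55% CRE and 0.164% C/EBP in the same 250 bases. These matches describe the letters of the windows and nothing more.

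The 3 libraries held 609, 3591 and 3322 cells with medians of 2218, 5952 and 5742 UMIs, so library 1 stood apart in size and depth. Shares of cells are therefore given after each cell was thinned to 2000 UMIs, which left out 201, 22 and 38 shallower cells. All 10 microglia markers were detected in each library, at 22976 to 28093 summed CPM. Markers of perivascular macrophages summed to 0.745 to 2.28 CPM and of monocytes to 3.32 to 8.93 CPM, with Cd163 and Lyve1 at 0 in every cell. Markers of astrocytes summed to 103 to 167 CPM and of oligodendrocytes to 64.2 to 78.9 CPM. Nearly all of the astrocyte sum was Slc1a3, at 98.8 to 164 CPM, and no other astrocyte marker passed 2.98 CPM. Mag, at 36.6 to 50.5 CPM, made up most of the oligodendrocyte sum. These 2 sums thus rested mainly on 1 gene each. Early response genes, a list that overlaps genes the study picked from these libraries, summed to 33999 CPM in library 3 against 4367 and 4482 CPM in libraries 1 and 2. Libraries shared 3 to 19 barcode sequences, at most 0.821% of a library. Neutrophil markers summed to 0, 3.94 and 5.21 CPM and erythroid markers to 0, 5.15 and 3.9 CPM in libraries 1, 2 and 3. At least 2 neutrophil markers were held by 0, 9 and 10 cells. Mbp, a myelin gene, had a UMI in 4.27%, 11.6% and 8.25% of cells before thinning. Whether such transcripts came from free RNA or from other cells was not tested. Free RNA was not measured, and a share of cells with a UMI cannot be told apart from it.

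Apoe was the gene in which the level and the share of cells parted most between libraries. Its level was 1045 CPM in library 1 (1404 UMIs), 517 CPM in library 2 (12460 UMIs) and 533 CPM in library 3 (10538 UMIs). At 2000 UMIs per cell, however, Apoe was found in 39.5% of library 1 cells (95% interval 34.7 to 44.4%), 57.4% of library 2 cells (55.8 to 59.0%) and 55.4% of library 3 cells (53.7 to 57.1%). Library 1 thus had the highest level and the lowest share, so no order of the libraries was read from the share. Without thinning the shares were 42.0%, 90.1% and 86.6%.

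The higher level of library 1 rested on few cells. A cell was called Apoe-rich when it held at least 10 Apoe UMIs of 2000, a limit set after the distribution was seen. There were 61 such cells among 7261 (0.840%, exact interval 0.643 to 1.08%). They numbered 10 of 408 cells in library 1 (2.45%, 1.18 to 4.46%), 27 of 3569 in library 2 (0.757%, 0.499 to 1.10%) and 24 of 3284 in library 3 (0.731%, 0.469 to 1.09%). These cells held 58.0% of the thinned Apoe UMIs of library 1, 14.7% of those of library 2 and 17.6% of those of library 3. A single cell of library 1, with 338 Apoe UMIs, carried 24.1% of that library's Apoe, and the 3 highest cells carried 39.7%. In libraries 2 and 3 the highest cells held 135 and 198 UMIs.

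Without the Apoe-rich cells the Apoe level was 501 CPM in library 1 (463 to 540), 458 CPM in library 2 (450 to 467) and 456 CPM in library 3 (446 to 465). These levels still hold the shallower cells, which could not be called Apoe-rich or not. The 201 shallower cells of library 1 had 826 CPM (722 to 941), with up to 38 Apoe UMIs in a cell. Among cells with at least 2000 UMIs that were not Apoe-rich, the level was 414 CPM in library 1 (376 to 455), 457 CPM in library 2 (449 to 466) and 456 CPM in library 3 (446 to 465). With the shallower cells kept, the ratio of library 2 to library 1 moved from 0.495 to 0.915, and that of library 3 to library 1 from 0.510 to 0.910, both within 1.5-fold. Leaving out only the 3 highest cells of each library gave 635, 502 and 510 CPM. The mean per thinned cell moved likewise, from 1.77, 1.05 and 1.07 Apoe UMIs with all cells to 0.761, 0.901 and 0.887 without the Apoe-rich cells. On this last scale, as in the deep cells alone, library 1 was the lowest and not the highest. The cells left out were chosen by Apoe itself and made up a larger share of library 1, so this order is a description. With only the 3 highest cells of each library left out, library 1 stayed the highest. The limit of 10 lay in a thin tail: 8, 24 and 29 cells held 6 to 9 UMIs, and 3, 12 and 9 cells held 10 to 14 UMIs.

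**Figure D1:**
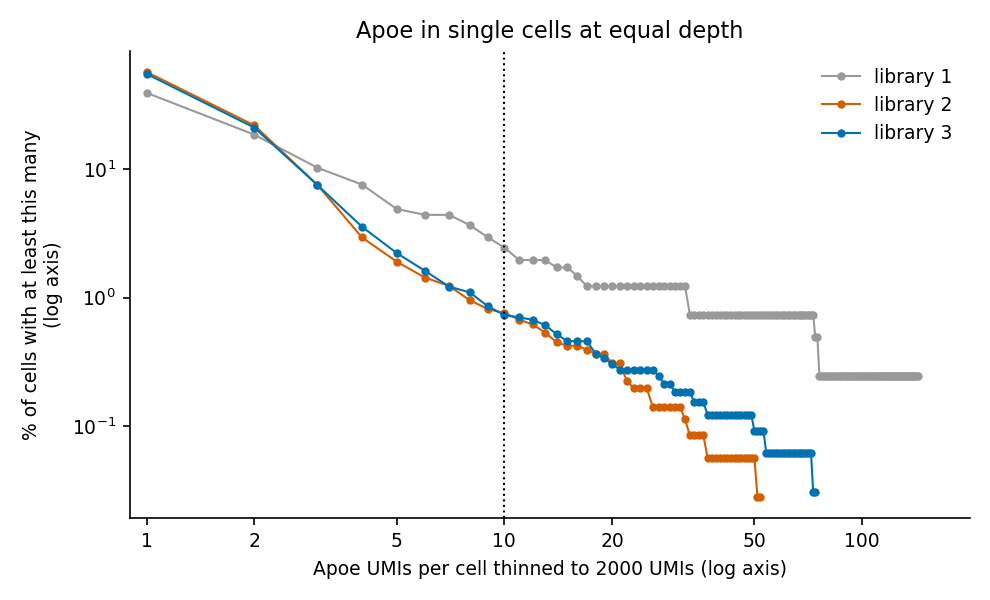
Share of cells (log axis) with at least the number of Apoe UMIs on the x axis (log axis), for cells thinned to 2000 UMIs, by library; each dot is a whole number of UMIs and the dotted line marks 10. Library 1 starts lowest, at 39.5% of cells with 1 UMI or more, and crosses above the other libraries in the tail, where 2.45% of its cells reach 10 UMIs.

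The Apoe-rich cells carried the microglia markers. P2ry12, Tmem119, Csf1r and Fcrls were detected in all 61 before thinning, and the 10 microglia markers summed to 0.915 times the UMIs expected from the other cells of the same libraries. By library this was 0.768 times in library 1 (0.697 to 0.845, 10 cells), 0.982 times in library 2 (0.928 to 1.04) and 0.914 times in library 3 (0.862 to 0.968). Of 7 perivascular macrophage markers, Mrc1 was detected in 2 and F13a1 in 1 of the 61 cells, and the other 5 were at 0. Mrc1 was thus found in 3.28% of the Apoe-rich cells (exact interval 0.400 to 11.3%) against 0.139% of the other 7200 (0.0666 to 0.255%), and at least 1 of the 7 markers in 4.92% (1.03 to 13.7%) against 1.12% (0.894 to 1.40%). After thinning the list had 1 UMI in the 61 cells against 0.161 expected, a ratio of 6.22. The part of such markers in the Apoe levels was not tested. Of 7 monocyte markers, Plac8 was detected in 1 of the 61 cells. The others, among them Ccr2, the defining monocyte receptor, were at 0. After thinning the monocyte list had 1 UMI against 0.435 expected, a ratio of 2.30. Only 0.103 UMIs of Ccr2 were expected there, so its 0 says little. Median depth was 5900 UMIs in the Apoe-rich cells of library 2 against 5962 in its other cells, and 5269 against 5770 in library 3, but 2908.5 against 2484 in library 1. In library 2, 26 of the 27 were scored S or G2/M against 76.1% of the other cells, in library 3 it was 3 of 24 against 9.36%, and in library 1 it was 0 of 10 against 4.02%. The 38 proliferation genes did not go the same way in library 2, with 121 UMIs against 148 expected (0.817 times, 0.678 to 0.976). They were at 0.981 times (0.690 to 1.35) in library 3 and 1.12 times (0.596 to 1.92) in library 1. Whether Apoe-rich cells divide more often was not tested.

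Other genes were also higher in these cells, given here without a test because the cells were chosen by Apoe after it was seen. Axl had 9 UMIs in the 61 thinned cells where 1.57 were expected from the other cells of the same libraries, 5.75 times as many (interval 2.63 to 10.9), in 8 cells. Of these Axl UMIs 2, 6 and 1 fell in libraries 1, 2 and 3. Csf1 had 6 UMIs in 4 cells against 1.52 expected (3.95 times, 1.45 to 8.59), with 1, 5 and 0 in libraries 1, 2 and 3. Cd63 had 103 UMIs against 66.1 (1.56 times, 1.27 to 1.89) and Cd9 171 against 146 (1.17 times, 1.0 to 1.36). Cst7, with 6 UMIs against 2.59, and Abca1, with 1 against 3.56, had intervals that include 1. Itgax had 0 UMIs and Igf1 had 1.

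Among all other genes with at least 20 UMIs in the Apoe-rich cells, the furthest above expectation were Cd74, the invariant chain of antigen presentation, Lyz2 (lysozyme) and Ccl4, a chemokine. The minimum of 20 UMIs was counted in these same cells. Cd74, with 7.40 UMIs expected, reached it only by being high there, so the ranking is a description. Cd74 had 38 UMIs in 14 cells (5.14 times the expected number, 3.64 to 7.05), of which 29 fell in library 2. Lyz2 had 138 UMIs in 40 cells (3.38 times, 2.84 to 3.99), with 40, 66 and 32 in libraries 1, 2 and 3. Ccl4 had 115 UMIs in 24 cells (2.65 times, 2.19 to 3.18). Of these Ccl4 UMIs 7, 42 and 66 fell in 1, 5 and 18 cells of libraries 1, 2 and 3, so few cells held many and its interval is too narrow. P2ry12, the purinergic receptor of resting microglia, had 244 UMIs against 336 (0.727 times, 0.639 to 0.824).

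Abca1 was lower in libraries 2 and 3 than in library 1. Its level was 53.6 CPM in library 1 (72 UMIs, 41.9 to 67.5), 19.6 CPM in library 2 (473 UMIs, 17.9 to 21.5) and 23.6 CPM in library 3 (467 UMIs, 21.5 to 25.9). The share of cells at equal depth had the same order, with 10.0% (7.31 to 13.4%), 4.12% (3.49 to 4.82%) and 5.15% (4.42 to 5.96%). Library 2 was 2.73-fold lower than library 1 (2.1 to 3.51) and library 3 was 2.27-fold lower (1.75 to 2.91). Libraries 2 and 3 differed by 1.20-fold (1.06 to 1.37). Unlike Apoe, the ratio of library 2 to library 1 stayed at 0.365 without the Apoe-rich cells, against 0.366 with them.

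Axl was found in few cells. Its level was 22.3 CPM in library 1 (30 UMIs, 15.1 to 31.9), 17.5 CPM in library 2 (422 UMIs, 15.9 to 19.3) and 10.7 CPM in library 3 (212 UMIs, 9.33 to 12.3). The shares at equal depth were 2.70% (1.35 to 4.77%), 2.94% (2.41 to 3.55%) and 1.98% (1.53 to 2.52%). Libraries 1 and 2 did not differ beyond counting error. Library 3 was 1.63-fold lower than library 2 (1.38 to 1.94), a difference in a gene whose mean level was under the minimum of 20 CPM, so it was not called. Removing the Apoe-rich cells left this ratio at 0.637, against 0.612 with them.

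Cst7 was highest in library 2. It had 36.8 CPM there (886 UMIs, 34.4 to 39.3), against 9.68 CPM in library 1 (13 UMIs, 5.15 to 16.6) and 12.2 CPM in library 3 (241 UMIs, 10.7 to 13.8). At equal depth it was found in 6.56% of library 2 cells (5.77 to 7.42%), 1.96% of library 1 cells (0.850 to 3.83%) and 2.31% of library 3 cells (1.83 to 2.89%). Library 2 was 3.8-fold higher than library 1 (2.21 to 7.16), and library 3 was 3.02-fold lower than library 2 (2.61 to 3.49). Libraries 1 and 3 had overlapping intervals on both scales. The highest single cell held 9 UMIs in library 2, 2 in library 1 and 3 in library 3.

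Itgax was near the limit of detection, with 5.96 CPM in library 1 (8 UMIs), 3.24 CPM in library 2 (78 UMIs) and 1.52 CPM in library 3 (30 UMIs). At equal depth 4, 28 and 10 cells held a UMI (0.980%, 0.785% and 0.305%). Library 3 was 2.13-fold lower than library 2 (1.38 to 3.37) and 3.93-fold lower than library 1 (1.55 to 8.76), and the minimum left Itgax out of the calls in every comparison.

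The tetraspanins were the most widely detected of the genes and parted in direction. Cd9 had 1869 CPM in library 1 (1797 to 1943), 1028 CPM in library 2 (1015 to 1041) and 1087 CPM in library 3 (1072 to 1101), and was found at equal depth in 95.1%, 84.9% and 87.5% of cells. Library 2 was 1.82-fold lower than library 1 (1.74 to 1.89) and library 3 1.72-fold lower (1.65 to 1.79). Cd63 had 474 CPM in library 1 (438 to 513), 570 CPM in library 2 (560 to 579) and 560 CPM in library 3 (550 to 570), with shares of 50.2%, 67.2% and 64.5%. Libraries 2 and 3 were thus 1.20-fold (1.11 to 1.30) and 1.18-fold (1.09 to 1.28) higher than library 1, short of the limit of 1.5. Between libraries 2 and 3 the ratios were 1.06 for Cd9 and 0.983 for Cd63.

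The growth factors were sparse. Csf1 had 13.4 CPM in library 1 (18 UMIs, 7.94 to 21.2), 11.6 CPM in library 2 (279 UMIs, 10.3 to 13) and 13.3 CPM in library 3 (262 UMIs, 11.7 to 15), with overlapping intervals. Its shares at equal depth were 2.94%, 1.99% and 2.80%. Igf1 had 0 UMIs in library 1, 7 in library 2 and 3 in library 3. With 609 cells in library 1, none found still leaves room for 0.493% of cells, above the 0.195% and 0.0903% of cells in libraries 2 and 3, so no difference was detectable at this depth. The 10 cells with Igf1 held 1 UMI each, carried 9 or 10 of the 10 microglia markers, and none held a UMI of a perivascular macrophage marker.

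**Figure D2:**
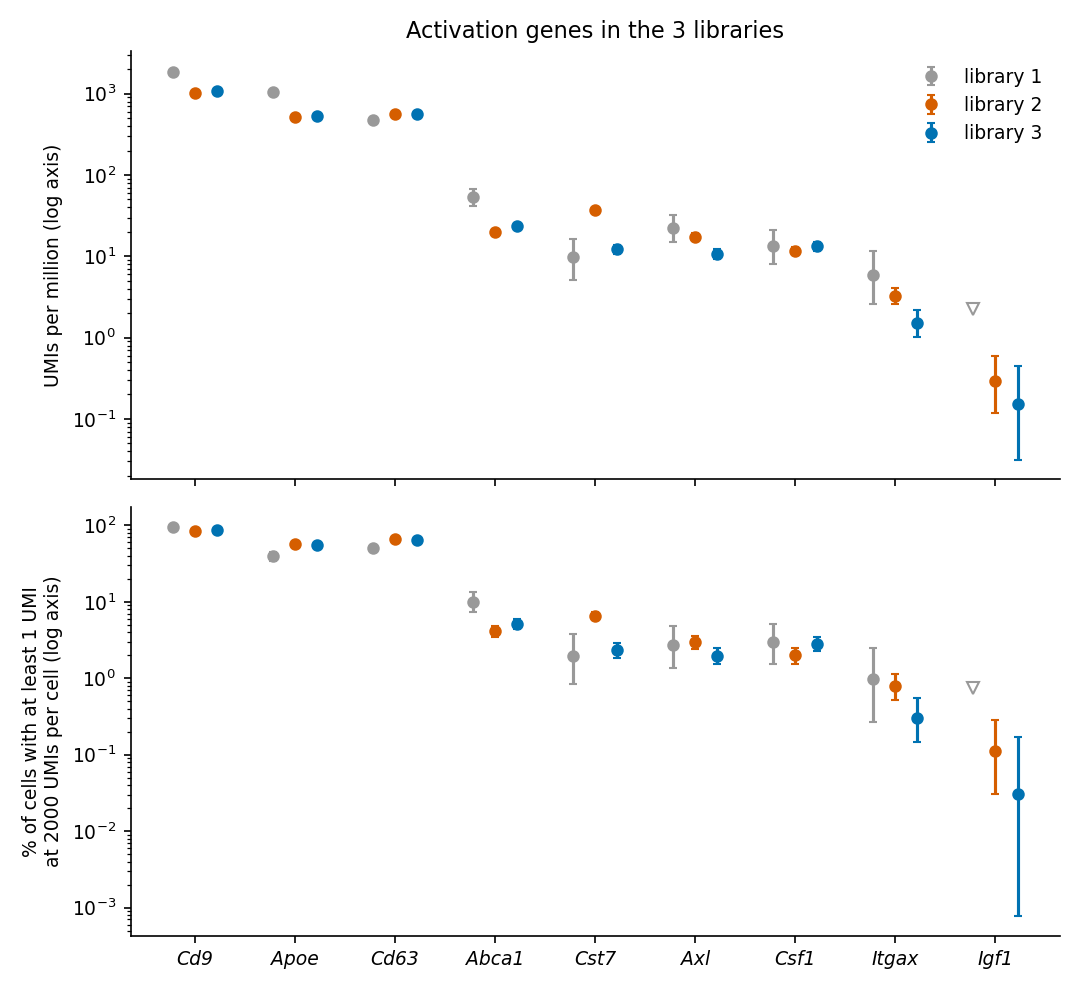
Level (upper panel, CPM, log axis) and share of cells with at least 1 UMI at 2000 UMIs per cell (lower panel, percent, log axis) of the 9 genes in each library, with exact 95% intervals of counting error; open triangles give the limit that 0 UMIs allow. Cst7 is highest in library 2 in both panels, Abca1 and Cd9 are highest in library 1 in both, and Apoe is highest in library 1 by level but lowest by share.

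The genes were next counted against all genes tested. From library 1 to library 2, 1 of 5 tested genes was higher (Cst7), where 12.5% of all 6204 tested genes were, and 3 were lower (Apoe, Cd9, Abca1), where 15.5% were. Cst7 reached the minimum only through library 2, where it was high, and Abca1 through library 1, so their place among the tested genes was set by the same values as their call and the counts are a description. The median log2 ratio was -0.86 over the 5 genes and -0.08 over all. From library 1 to library 3, 0 of 4 were higher against a background of 11% and 3 were lower (Apoe, Cd9, Abca1) against 16.9%, with medians of -0.88 and -0.07. From library 2 to library 3, 0 of 5 were higher against 3.4% and 1 was lower (Cst7) against 4.42%, with medians of 0.04 and -0.02. Both of the first comparisons use library 1, so the 3 genes called lower in each were measured against the same cells. Scaled to the median ratio of all genes, 15.3% of genes were higher and 12.3% lower in library 2, and 13.5% higher and 13.6% lower in library 3, with the same calls of the named genes. Without the Apoe-rich cells 2 genes, Cd9 and Abca1, were lower in each of the first 2 comparisons.

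The cells were then divided by cell cycle phase within each library, using Seurat scores built from S and G2/M genes that include none of the 9. Library 2 held 852 cells scored G1, 975 scored S and 1764 scored G2/M, and library 3 held 3003, 278 and 41. Library 1 had 27 cells outside G1, too few to compare. Mki67, a marker of dividing cells, was at 101 CPM in the S or G2/M cells of library 2 against 39.4 CPM in its G1 cells, and at 7.62 against 0.962 CPM in library 3. Mki67 is itself among the G2/M genes scored, so its difference between the classes was built in by the scoring. With Mki67 at 39.4 CPM, the G1 class of library 2 still held proliferation transcripts. The S or G2/M class of library 3 had less Mki67 than that G1 class, so the classes are named by score and not as dividing cells. Their sizes depended on the scoring. With each library scored on its own, 1172 cells of library 2 and 2106 of library 3 were S or G2/M, against 2739 and 319. Of the scored cells of library 2, 23.8% lay within 0.02 of the score limit, against 8.82% in library 3.

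None of the tested genes passed 1.5-fold between cells scored S or G2/M and cells scored G1. Axl, Itgax, Csf1 and Igf1 in library 2, and Cst7 as well in library 3, were under the minimum level and were not tested. In library 2, 0 of 5 tested genes were higher in S or G2/M cells, where 1.99% of all 6026 genes were, and 0 were lower, where 0.0332% were. In library 3, 0 of 4 were higher against 1.53% and 0 were lower against 0.134%. The median log2 ratio of the tested genes was -0.04 in library 2 and -0.11 in library 3, against 0.00166 and 0.02 over all genes.

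Apoe was at 469 CPM in G1 cells (450 to 489), 546 CPM in S cells (529 to 564) and 520 CPM in G2/M cells (507 to 532) of library 2. The ratio of S or G2/M to G1 was 1.13 (1.08 to 1.18), which became 1.05 without the Apoe-rich cells, 0.984 with scores of thinned cells and 0.934 with library 2 scored on its own, so its direction depended on the scoring. In library 3 the ratio was 1.11 (1.05 to 1.18), which became 1.02 without the Apoe-rich cells and 0.975 with library 3 scored on its own. The 41 G2/M cells of library 3 had 1160 CPM (1019 to 1315) on 245 UMIs, of which 122 lay in 1 cell, and 593 CPM (493 to 707) without that cell. The shares at equal depth were 58.0% in G1 and 57.2% in S or G2/M cells of library 2, and 54.9% and 59.7% in library 3, with overlapping intervals in both.

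Among the sparse genes, Axl had 13.6 CPM in G1, 15.2 in S and 20.3 in G2/M cells of library 2, a ratio of S or G2/M to G1 of 1.36 (1.04 to 1.80) that became 0.975 with scores of thinned cells. In library 3 its ratio was 0.828 (0.488 to 1.33). Cst7 had 29.5, 37.3 and 39.3 CPM in the 3 phases of library 2, a ratio of 1.31 (1.09 to 1.58) that became 1.06 with scores of thinned cells, and in library 3 its ratio was 0.931 (0.584 to 1.42). Csf1 had 8.86, 13.3 and 11.7 CPM in the 3 phases of library 2. Its ratio was 1.38 (0.996 to 1.96), and 1.99 when levels came from thinned cells, where 1.18% of G1 cells (0.567 to 2.16%) and 2.24% of S or G2/M cells (1.72 to 2.87%) held it. In library 3 the ratio of Csf1 was 1.17 (0.782 to 1.70).

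Cd9 was slightly lower in cells scored S or G2/M than in cells scored G1 in both libraries. Its ratios were 0.932 (0.904 to 0.961) in library 2 and 0.848 (0.809 to 0.888) in library 3. Both stayed below 1 under every setting run. By phase, Cd9 had 1087 CPM in G1, 966 in S and 1039 in G2/M cells of library 2. In library 3 it had 1104 CPM in G1 cells (1089 to 1120) and 901 CPM in S cells (858 to 945). The 41 G2/M cells of library 3 had 1255 CPM (1108 to 1415), not lower than its G1 cells, with overlapping intervals. Cd63 had ratios of 0.971 (0.931 to 1.01) and 0.982 (0.923 to 1.04), Abca1 of 0.928 (0.743 to 1.17) and 0.875 (0.627 to 1.20), and Itgax of 0.731 (0.433 to 1.28) and 0.935 (0.182 to 3.04). Of the 7 Igf1 UMIs of library 2, 6 lay in S or G2/M cells, and all 3 of library 3 lay in G1 cells. These intervals set the size that could be seen: a change past 1.5-fold lay outside the intervals of Apoe, Cd9, Cd63 and Abca1 in library 2, but inside those of Axl, Cst7, Itgax and Csf1.

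**Figure D3:**
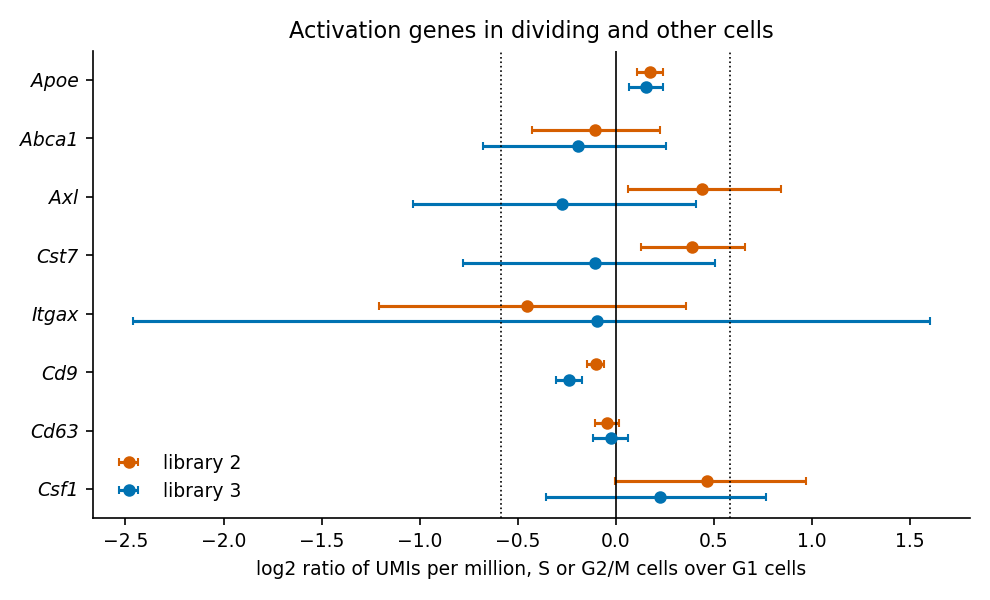
Log2 ratio of CPM in cells scored S or G2/M over cells scored G1 for 8 genes in libraries 2 and 3, with exact 95% intervals of counting error; dotted lines mark 1.5-fold in each direction. Every point lies inside the dotted lines, Cd9 lies below 0 in both libraries, and the intervals of Axl, Cst7, Itgax and Csf1 reach past a dotted line in both.

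In single cells the genes were mostly seen 2 or 3 at a time, and these were chiefly the abundant Cd9, Cd63 and Apoe. At 2000 UMIs, 2 of the 9 genes were detected in 38.5%, 41.9% and 41.1% of cells of libraries 1, 2 and 3, and 3 genes in 23.5%, 33.8% and 33.6%. None of the genes was seen in 1.47%, 1.93% and 1.83% of cells. At least 5 were seen in 6 of 408, 7 of 3569 and 8 of 3284 cells. Of the 6 sparse genes (Axl, Cst7, Itgax, Csf1, Igf1, Abca1), at least 1 was seen in 16.7%, 15.6% and 11.9% of cells, and at least 2 in 1.72%, 0.897% and 0.579%.

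**Figure D4:**
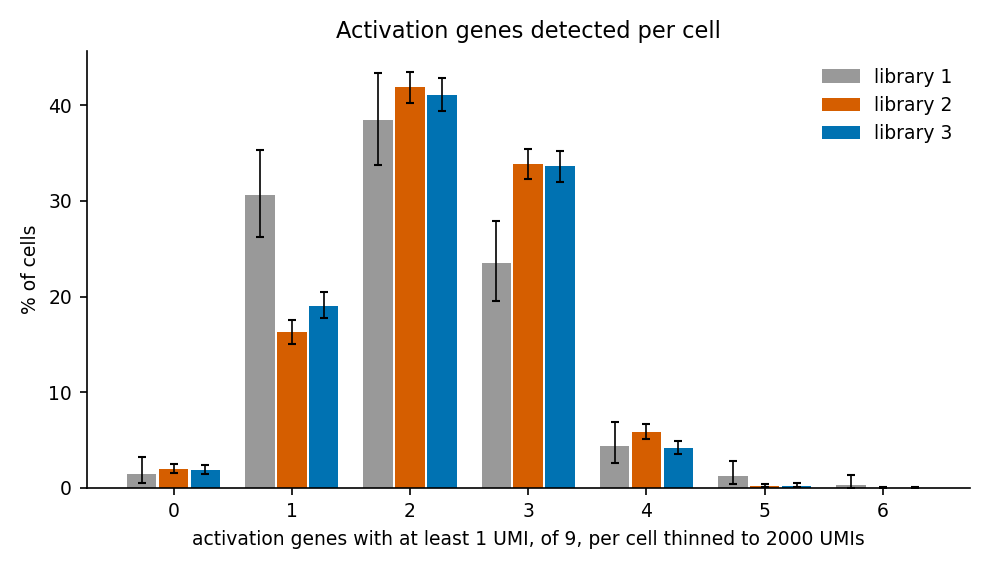
Percent of cells thinned to 2000 UMIs in which 0 to 6 of the 9 genes had at least 1 UMI, by library, with exact 95% intervals. Most cells held 1 to 3 of the genes in every library, and cells with 4 or more made up 4.38% to 6.05% of a library.

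No pair of genes stood apart in detection at this depth, where few cells held 2 of the sparse genes. For 28 pairs in library 2 and 21 in library 3 with at least 20 cells for each gene, the share of cells with the first gene was compared between cells with and without the second, and the exact intervals overlapped in all of them. Apoe, for example, was found in 58.1% of the 234 library 2 cells with Cst7 (51.5 to 64.5%) and in 57.4% of those without (55.7 to 59.0%). Axl was found in 3.42% of cells with Cst7 (1.49 to 6.62%) and 2.91% of those without (2.36 to 3.54%). Only 8 cells held both, and intervals this wide could not show a small difference. No conclusion is drawn for pairs of sparse genes. The rule for genes of like pattern asked for a correlation of at least 0.3 over thinned G1 cells, and no gene reached it for Apoe, Cd9 or Cd63, the only ones with at least 0.5 UMIs per thinned cell.

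Cell type markers were averaged in cells with and without a sparse gene, with no interval and no test. In library 2 the microglia markers averaged 45.8 UMIs in cells with Cst7 and 46.7 in cells without, 45.4 and 46.7 for Axl, and 47.0 and 46.6 for Abca1. In library 3 they averaged 51.9 and 52.7 UMIs for Cst7. For Itgax the microglia markers averaged 43.9 and 46.6 UMIs in library 2 (28 cells with it) and 48.3 and 52.7 UMIs in library 3 (10 cells with it). The proliferation genes averaged 5.56 UMIs in library 2 cells with Cst7 and 5.47 in those without, and 4.90 and 5.50 for Abca1.

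Because early response genes were high in library 3, G1 cells of each library were ordered by their early response UMIs and the lowest and highest terciles were set side by side. In library 3 the terciles of 992 cells averaged 40.9 and 95.2 early response UMIs. Apoe had 1052 and 1003 UMIs there (ratio 0.953, 0.874 to 1.04), Cd9 2277 and 2156 (0.947, 0.892 to 1.0) and Cd63 1163 and 1031 (0.887, 0.814 to 0.965). Cst7 had 28 and 16 UMIs (0.571, 0.289 to 1.09), and Abca1 49 and 53 (1.08, 0.719 to 1.63). In library 1 Apoe had 477 and 104 UMIs in terciles of 130 cells, of which 7 and 0 were Apoe-rich. Without those cells it had 96 and 104 UMIs, or 0.78 and 0.80 per cell.

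The other genes of the same pathways were read from fixed lists. Among 14 genes of cholesterol handling around Apoe and Abca1, 7 were tested. In library 2 against library 1, 3 were lower and 0 higher, where 15.5% and 12.5% of all tested genes were. The 3 were Mylip, which degrades the LDL receptor, at 96.1 against 163 CPM, Soat1, which esterifies cholesterol, at 42.9 against 70.0 CPM, and Npc1, which exports it from lysosomes, at 73.0 against 112 CPM. In library 3 against library 1, 3 were again lower, against 16.9% of all genes: Npc1 at 48.6 CPM, Soat1 at 42.4 CPM and Lrp1, a receptor that takes up Apoe, at 182 against 274 CPM. Npc1 was also lower in library 3 than in library 2, just past 1.5-fold, at 48.6 against 73.0 CPM. It was 1 of the 7 tested genes, where 4.42% of all tested genes were lower. The list's median log2 ratio was -0.56, -0.34 and -0.01 in the 3 comparisons.

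Of 6 genes listed around Axl and its sister receptors, 4 were tested. Mertk, a sister receptor of Axl, was lower in both libraries 2 and 3 than in library 1, at 135 and 150 against 288 CPM. Socs3, a brake on cytokine signalling that is also in the early response list, was at 42.4, 96.0 and 544 CPM in libraries 1, 2 and 3, past the fold in each comparison. Of the 6 proteases and inhibitors around Cst7, all tested, 1 was past the fold in libraries 2 and 3 against library 1: Cst3 (cystatin C), at 36331 and 37004 against 61029 CPM. Of 5 genes of Clec7a signalling, 4 were tested and 1, the adaptor Card9, was lower in libraries 2 and 3 than in library 1, at 20.1 and 24.3 against 44.7 CPM. Of all tested genes, 15.5% were lower and 12.5% higher in library 2 than in library 1. For library 3 these shares were 16.9% and 11% against library 1, and 3.4% were higher than in library 2. With 4 to 6 tested genes in a list, the counts are a description.

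Of 8 other tetraspanins, 7 had a row and were tested. Tspan4 was higher in libraries 2 and 3 than in library 1, at 233 and 295 against 153 CPM, and so was Cd151, at 110 and 105 against 68.5 CPM, in contrast to the lower level of Cd9. These 2 of 7 genes stand beside 12.5% of all tested genes higher in library 2 and 11% in library 3. Of the Itgax partners 2 were tested, as were 2 of 8 receptors and binders of Csf1 and Igf1, and none passed the fold in any comparison.

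Among 24 other genes of disease-associated microglia, 17 to 19 were tested. In library 2 against library 1, 2 of 18 were higher, near the 12.5% of all genes, and 1 was lower, against 15.5%. Cd52 (a surface glycoprotein) and Fth1 (ferritin heavy chain) were higher in library 2 than in library 1, at 875 against 517 CPM and 5501 against 3131 CPM, and Lpl (lipoprotein lipase) was lower, at 39.5 against 72.2 CPM. In library 3 against library 1, 0 of 17 were higher, against 11% of all genes, and 2 were lower, against 16.9%, Lpl at 44.1 CPM and B2m at 3038 against 5202 CPM. In library 3 against library 2, 1 of 17 was lower, against 4.42% of all genes, Cd52 at 561 CPM. Larger differences lay in genes under the minimum level, named after their values were seen. Spp1 was at 24.7 CPM in library 2 and 3.14 CPM in library 3 (7.87-fold lower, 595 and 62 UMIs). Lgals1 (galectin-1) was at 27.3 and 7.13 CPM (3.82-fold lower, 657 and 141 UMIs). Lgals3 was at 15.3 and 5.21 CPM (2.93-fold lower, 368 and 103 UMIs), and Ch25h, which makes an oxidised cholesterol, was at 2.45 and 0.556 CPM (59 and 11 UMIs). In library 1 these genes were at 25.3, 4.47, 11.2 and 11.2 CPM. The list's median log2 ratio was -0.01, -0.05 and -0.16 in the 3 comparisons.

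Of 13 homeostatic genes, all tested, 6 were lower in library 2 and 5 in library 3 than in library 1, and 0 were higher in either. Of all tested genes 15.5% and 16.9% were lower and 12.5% and 11% higher. Gpr34, a lysophosphatidylserine receptor, was at 787 and 932 against 1871 CPM, and Sall1, a transcription factor of microglial identity, at 93.8 and 89.8 against 181 CPM. Txnip, a regulator of glucose uptake, was at 145 CPM in library 2 against 289 CPM in library 1 and 272 CPM in library 3. Between cells scored S or G2/M and cells scored G1, 1 tested gene of these lists passed the fold. It was Spp1 (osteopontin), at 26.6 CPM in S or G2/M cells against 17.3 CPM in G1 cells of library 2. Spp1 was 1 of 19 tested genes of its list, where 1.99% of all 6026 tested genes were higher. Spp1 reached the minimum only through the S or G2/M cells, where it was high, so this count is a description. Under the minimum, Lgals3 (galectin-3) was at 13.2 CPM against 23.5 CPM in the same cells, a ratio of 0.562 (0.449 to 0.707), and was named after its values were seen.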

How the data were processed

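YFP (+) lumbar cord cells were profiled by droplet 3′ sequencing. The authors deposited raw UMI counts per gene and cell as a sparse matrix with its gene and barcode lists; the submitters' processing notes name Cell Ranger 2.1.1 and mm10. The deposited counts summed to 45209768 UMIs over 7522 cells. Libraries were read from the barcode suffix, which could not be mapped to a sample. All deposited cells were used, and no doublet caller was run: the sort gate of the methods came before loading, so droplets with 2 cells may remain and add to genes seen together. Phases were scored with Seurat 5.3.0 in R 4.3.3 on 586, 3591 and 3322 cells of libraries 1, 2 and 3 with at least 200 genes, 500 UMIs and at most 10% mitochondrial UMIs. Levels were summed UMIs per 1000000 UMIs, ratios had exact conditional binomial intervals, shares had exact Clopper-Pearson intervals, and cells were thinned without replacement (seed 1) with Python 3.11.15, numpy 2.4.6, scipy 1.17.1 and pandas 2.3.3. Intervals and limits (3 counts for a count of 0) cover counting error only, and are too narrow where few cells hold most UMIs, as for Apoe. Ratios were tested on simulated counts, and thinning was checked against the shares expected from the deposited counts.

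The genes and lists were chosen with earlier results of these data known. All 10 genes were to be described; from each pathway list up to 3 genes past the fold with the largest change were named per comparison; genes of like pattern were to be printed from a correlation of 0.3. The limit for Apoe-rich cells, Cd74, Lyz2, Ccl4 and P2ry12 in them, and Spp1 (library 3), Lgals1, Lgals3 and Ch25h under the minimum, were chosen after the values were seen. Positions came from GENCODE M21, which held 27645 of the 27998 gene identifiers, and promoters from RefSeq on GRCm38.p6. Alternatives were thinned levels, thinning to 1000 UMIs or none, a second seed, at least 2 UMIs for a share, 2 cell filters, 2 other minimums, a pseudocount, 2 other scalings, a fold of 2, 4 other phase classes, and leaving out the cells richest in Apoe.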

Additional observations from a re-analysis of the deposited data

How the results depend on the processing

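The counts of genes past the fold stood within 1.5 times the reported count in 119 of 124 values under other settings, and the other 5 came from the minimum and the fold. With no minimum level, 5 genes (Axl and Itgax added) were lower in library 3 than in library 1, 4 (Axl, Itgax and Igf1 added) were lower in library 3 than in library 2, and 1 (Igf1, on 1 and 6 UMIs) was higher in S or G2/M cells of library 2. With a minimum of 5 CPM, 2 genes (Axl, Cst7) were lower in library 3 than in library 2. With a fold of 2, 1 gene (Abca1) was lower in library 3 than in library 1. Of 496 ratios of single genes under other settings 37 left the counting interval, 17 of them of Apoe and 10 of Cd9, and 0 called ratios changed direction. These settings did not include leaving out the Apoe-rich and the shallower cells together. There Apoe was lowest in library 1, at 414 CPM (376 to 455) against 457 CPM (449 to 466) and 456 CPM (446 to 465) in libraries 2 and 3. Of 135 shares under other settings 68 left their interval: 26 of 27 when 2 UMIs were needed, 22 at 1000 UMIs, 17 without thinning and 3 with another seed (Igf1 in libraries 2 and 3, and Abca1 in library 3, at 4.35%). The ratio of Apoe in library 2 to library 1 was 0.592 from thinned cells and 0.790 without the 3 highest cells. Classes by proliferation gene UMIs could not be formed in library 2, where under 50 thinned cells held none. No paired analysis was possible because each group is 1 library. Library 1, with 408 cells of 2000 UMIs, limits every comparison with it.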
